A study of Bos taurus with 18 samples.

Results

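Fatty acid synthesis and desaturation were followed in the rumen lining through 10 genes, chosen by symbol from the 27270 genes of the deposited count table: SREBF1, ACLY, ME1, ACACA, FASN, SCD, ELOVL6, ELOVL5, FADS1 and FADS2. All 10 had a row in the table and passed the filter on low counts. The libraries came from papillae of 9 non-lactating Holstein cows carrying a rumen cannula, 5 of them controls and 4 given PHY, a name the labels do not expand. Per the series design, cows were biopsied on a ration of 100% forage and then moved to a high-grain ration (65% concentrate) and biopsied again. Diet and order of sampling thus cannot be told apart. The libraries form 4 groups: grain_PHY (n = 4), grain_control (n = 5), forage_PHY (n = 4) and forage_control (n = 5). The labels do not say which libraries share a cow, nor whether PHY was already fed at the forage biopsy, so libraries were treated as independent although each diet holds the same cows.

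Cytosolic fatty acid synthesis starts from acetyl-CoA, which ACLY makes by cleaving citrate and which ruminants make largely from acetate. ACACA carboxylates acetyl-CoA to malonyl-CoA, the committed step, and FASN builds palmitate from it with NADPH that enzymes such as ME1 supply. SCD places a double bond in saturated chains, ELOVL6 lengthens palmitate, and FADS2, ELOVL5 and FADS1 act in turn on polyunsaturated chains. SREBF1 encodes a transcription factor that drives many of these genes. In ruminants adipose tissue and the lactating udder are the main sites of this pathway, while the rumen epithelium is known for taking up acetate, propionate and butyrate and for making ketone bodies.

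Totals ran from 3953060 to 23949058 reads per grain library and from 15808999 to 34471682 per forage library. The reads on 144 genes named as olfactory receptors, whose usual site is the nose, summed to 106.6 ± 100 CPM (counts scaled to library size) on grain and 30.4 ± 16.3 CPM on forage (SD, n = 9 each). In CPM they were highest in grain_PHY 1 (345.3 CPM, 3953060 reads in total), grain_control 1 (168.6 CPM, 5433497 reads) and grain_control 4 (125.4 CPM, 9944586 reads). These 3 also had the fewest reads in total, so results are also given without them. Their olfactory receptor reads numbered 1365, 916 and 1247, against 424 to 1365 over all 18 libraries. The tissue label was checked against epithelial markers: the basal keratin gene KRT5 had 951 to 5597 CPM and the desmosome gene DSP 1700 to 11250 CPM, whereas the keratin genes KRT1, KRT4 and KRT10 stayed between 0.123 and 8.45 CPM. SLC16A1, a monocarboxylate transporter, had 366 to 1240 CPM. The summed level of the 10 measured epithelial markers was 10140 ± 4278 CPM on grain and 15690 ± 3890 CPM on forage, and the sum was not tested. Singly, DSP (log2 change -0.86, edgeR adjusted p = 0.0302), PKP1 (-0.84, 0.023), CDH1 (-0.71, 0.0327) and TP63 (-0.65, 0.033) were lower on grain. KRT1 (1.62, 0.0297) and DSG1 (0.89, 0.0433) were higher. KRT5 (-0.46), KRT14 (-0.45), KRT10 (-0.12) and KRT4 (1.225) did not pass the edgeR test. The 8 adipocyte markers summed to 160.7 ± 65.7 CPM on grain and 245.6 ± 81.7 CPM on forage, with ranges of 74.1 to 246.9 CPM on grain and 141 to 419 CPM on forage. FABP4 made up most of that sum (59.2 to 402.8 CPM), ADIPOQ had only 0.0409 to 2.30 CPM, and none of the 8 was at 0 in any library. The markers did not move together: FABP4 was lower on grain (log2 change -0.74, edgeR adjusted p = 0.048), while ADIPOQ (1.78, adjusted p = 0.0417), LEP (1.66, 0.0457) and LPL (1.02, 0.0274) were higher. CIDEA had a log2 change of -0.68, and CIDEC 1.36, PLIN1 0.67 and LIPE 0.60, none of which passed the edgeR test. Summed myeloid markers were at 50.3 ± 6.94 CPM on grain and 40.6 ± 4.84 CPM on forage, and fibroblast markers at 1175 ± 480 CPM on grain and 1121 ± 914 CPM on forage. T and NK cell markers summed to 25.7 ± 6.08 CPM on grain and 23.5 ± 4.47 CPM on forage, and B and plasma cell markers to 10.8 ± 4.45 CPM on grain and 6.35 ± 2.05 CPM on forage. Among these leukocyte markers CD8A (log2 change 1.70, edgeR adjusted p = 0.0217), NKG7 (1.34, 0.0407), MS4A1 (1.42, 0.0459), ITGAM (1.48, 0.0214), FCGR1A (1.46, 0.0202) and CD163 (0.73, 0.0493) were higher on grain. No other marker of these cell types passed the edgeR test, with log2 changes from -0.30 for CD3G to 1.995 for CD79B. Endothelial markers summed to 170 ± 43.7 CPM on grain and 193 ± 51.0 CPM on forage, and smooth muscle markers to 181 ± 82.2 CPM on grain and 213 ± 138 CPM on forage. The part of these shifts in the results on the 10 genes was not tested, and in whole papillae fewer cells of a type and less RNA per cell cannot be told apart.

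On grain, 6 of the 10 genes passed the test against forage over both arms. ME1, FASN, ACLY, SREBF1 and ELOVL6 were 1.4-fold to 1.83-fold lower, and FADS2 was 2.78-fold higher. The background is broad: 31.9% of the 22202 genes tested were called in this comparison (edgeR quasi-likelihood test, Benjamini-Hochberg adjusted p under 0.05), 13.8% lower and 18.1% higher. The median log2 change was -0.49 over the 10 genes and 0.20 over all genes tested. None of the calls stood without the 3 libraries named above, where edgeR called no gene at all and 4136 genes had an unadjusted p under 0.05; each of the 10 changes kept its sign there. Nor did any of those still tested stand when fewer, better expressed genes were fitted, which also meant that library scaling was computed anew. With a filter of 10 CPM in 4 libraries the log2 changes were -0.53 for ME1, -0.32 for FASN, -0.25 for ACLY, -0.12 for SREBF1 and -0.09 for ELOVL6 (edgeR adjusted p = 0.0888 to 0.716). Among genes of at least 30 CPM they were -0.43 for ME1, -0.20 for FASN and -0.14 for ACLY (edgeR adjusted p = 0.162 to 0.501). FADS2 passed neither filter, and SREBF1 and ELOVL6 did not pass the filter of 30 CPM, so they were not tested there. The values of each gene follow, in CPM, which is not scaled to gene length and is compared here only between libraries of 1 gene.

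**Figure D1:**
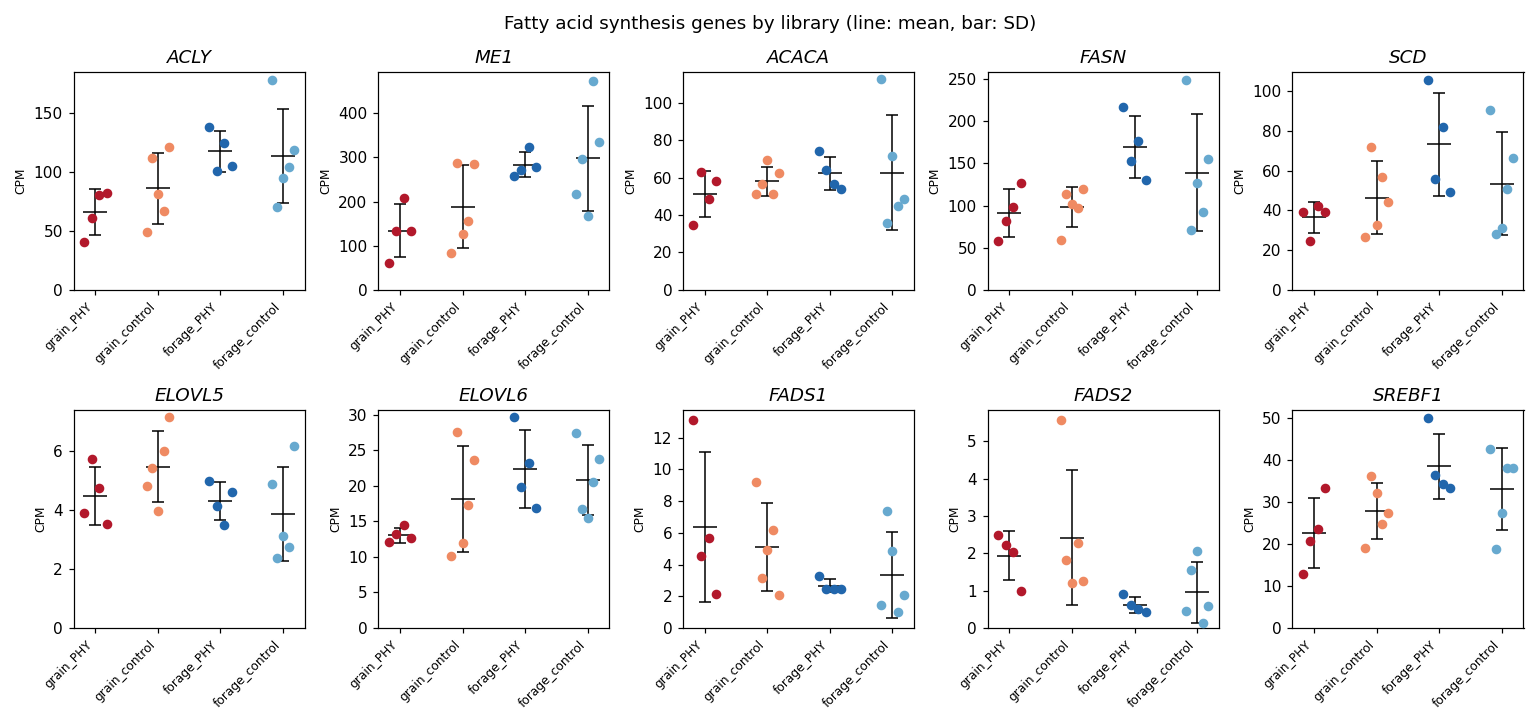
Level of each of the 10 genes in CPM (y axis, linear from 0) in every library, by group from left to right grain_PHY (n = 4), grain_control (n = 5), forage_PHY (n = 4) and forage_control (n = 5); points are libraries, the line is the mean and the bar the SD. ME1, FASN, ACLY, SCD and ELOVL6 lie lower in all 4 grain_PHY libraries than in any forage_PHY library, FADS2 lies higher, and the control groups overlap for each of the 10 genes. Of all 22202 genes tested, 15.8% were lower and 14.2% higher without overlap between grain_PHY and forage_PHY.

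SREBF1, the transcription factor, had 12.9, 20.7, 23.4 and 33.2 CPM in grain_PHY, against 50.0, 36.5, 34.2 and 33.2 CPM in forage_PHY. It had 19.0, 36.1, 32.2, 24.9 and 27.3 CPM in grain_control, against 42.6, 18.8, 27.3, 38.1 and 38.2 CPM in forage_control. The highest grain_PHY library reached the lowest forage_PHY library, and the control groups overlapped widely. Over both arms SREBF1 fell by 0.50 ± 0.19 on the log2 scale (SE; edgeR adjusted p = 0.0442). Its highest mean was in forage_PHY (38.5 ± 7.81 CPM) and its lowest in grain_PHY (22.6 ± 8.40 CPM).

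ACLY, which supplies acetyl-CoA from citrate, had 40.7, 61.0, 80.9 and 82.0 CPM in grain_PHY, against 138.7, 101.4, 125.0 and 105.2 CPM in forage_PHY. It had 49.3, 111.9, 81.3, 66.6 and 121.6 CPM in grain_control, against 178.4, 70.6, 95.3, 104.6 and 119.2 CPM in forage_control. The PHY groups did not overlap, and 2 of 5 grain_control libraries lay below every forage_control library. ACLY fell by 0.61 ± 0.21 on the log2 scale over both arms (SE; edgeR adjusted p = 0.0334).

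ME1, the cytosolic malic enzyme that yields NADPH, changed most among the genes that fell. It had 60.3, 132.1, 207.1 and 134.3 CPM in grain_PHY, against 257.6, 272.2, 323.6 and 279.2 CPM in forage_PHY. It had 83.1, 287.8, 125.6, 157.0 and 286.2 CPM in grain_control, against 216.3, 296.5, 166.2, 473.4 and 336.0 CPM in forage_control. The PHY groups did not overlap, and 6 of the 9 grain libraries of both arms lay below every forage library. ME1 fell by 0.87 ± 0.26 on the log2 scale (SE; edgeR adjusted p = 0.0246). Of the 22202 genes, 0.721% had a lower log2 change.

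ACACA, the carboxylase at the committed step, did not pass the test. It had 34.9, 62.9, 48.5 and 58.0 CPM in grain_PHY, against 74.3, 64.1, 56.8 and 54.0 CPM in forage_PHY. It had 51.1, 56.5, 69.4, 51.0 and 62.4 CPM in grain_control, against 112.6, 35.5, 71.7, 45.1 and 48.7 CPM in forage_control. Both pairs of groups overlapped, and its log2 change over both arms was -0.20 ± 0.19 (SE; edgeR adjusted p = 0.397). ACACB, the related carboxylase of the mitochondrial surface, had 34.98 ± 5.41 CPM on grain and 35.8 ± 3.81 CPM on forage (SD, n = 9 each; log2 change -0.04 ± 0.13 SE, edgeR adjusted p = 0.805; named after its value was seen).

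FASN, the multienzyme that assembles the chain, had 58.1, 81.9, 98.8 and 126.3 CPM in grain_PHY, against 217.1, 153.0, 176.5 and 130.5 CPM in forage_PHY. It had 58.6, 113.7, 102.4, 96.9 and 120.2 CPM in grain_control, against 249.3, 71.1, 126.7, 92.3 and 155.8 CPM in forage_control. The PHY groups were separated by a narrow gap, and 7 of the 9 forage libraries of both arms lay above every grain library. FASN fell by 0.69 ± 0.23 on the log2 scale (SE; edgeR adjusted p = 0.0296).

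SCD, the stearoyl-CoA desaturase, had 39.3, 24.6, 42.3 and 39.4 CPM in grain_PHY, against 105.7, 56.0, 82.1 and 49.1 CPM in forage_PHY. It had 26.4, 71.8, 32.5, 56.9 and 44.1 CPM in grain_control, against 90.7, 28.1, 31, 50.7 and 66.5 CPM in forage_control. The PHY groups did not overlap, whereas the control groups overlapped. Over both arms its log2 change was -0.61 ± 0.24 and narrowly missed the threshold (SE; edgeR adjusted p = 0.0514).

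ELOVL6, which lengthens palmitate, had 12.02, 13.2, 14.4 and 12.6 CPM in grain_PHY, against 29.7, 19.8, 23.3 and 16.8 CPM in forage_PHY. It had 10.2, 27.6, 11.9, 17.3 and 23.6 CPM in grain_control, against 27.4, 16.7, 15.5, 20.5 and 23.7 CPM in forage_control. The grain_PHY libraries were the tightest set of any of the 10 genes, with a coefficient of variation of 7.9% against 41.1% in grain_control. ELOVL6 fell by 0.48 ± 0.18 on the log2 scale over both arms (SE; edgeR adjusted p = 0.0459).

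ELOVL5, which lengthens polyunsaturated chains, had 3.90, 5.75, 4.75 and 3.54 CPM in grain_PHY, against 5.01, 4.15, 3.49 and 4.61 CPM in forage_PHY. It had 4.84, 5.43, 3.96, 6.01 and 7.15 CPM in grain_control, against 4.90, 2.39, 3.13, 2.74 and 6.17 CPM in forage_control. All groups overlapped, and the log2 change over both arms was 0.28 ± 0.22 (SE; edgeR adjusted p = 0.301).

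FADS1, which acts late on polyunsaturated chains, had 13.1, 4.55, 5.65 and 2.16 CPM in grain_PHY, against 3.29, 2.46, 2.44 and 2.49 CPM in forage_PHY. It had 9.19, 3.17, 4.93, 6.16 and 2.06 CPM in grain_control, against 1.43, 7.35, 4.87, 0.981 and 2.07 CPM in forage_control. The 2 highest libraries, grain_PHY 1 and grain_control 1, are also those with the highest olfactory receptor CPM. The log2 change over both arms was 0.92 ± 0.38 (SE; edgeR adjusted p = 0.0589), and 0.36 ± 0.39 without the 3 libraries named above (edgeR adjusted p = 0.587).

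FADS2, which makes the first double bond added to those chains, had 2.49, 2.23, 2.04 and 0.983 CPM in grain_PHY, against 0.919, 0.623, 0.498 and 0.439 CPM in forage_PHY. It had 5.56, 1.81, 1.20, 2.27 and 1.26 CPM in grain_control, against 0.453, 1.55, 2.07, 0.123 and 0.581 CPM in forage_control. The PHY groups did not overlap and the control groups did. FADS2 was higher on grain by 1.47 ± 0.49 on the log2 scale over both arms (SE; edgeR adjusted p = 0.0316). These levels rest on 3 to 46 reads per library for FADS2, 19 to 123 for FADS1 and 36 to 191 for ELOVL5, and FADS1 and FADS2 overlap on 1 chromosome in RefSeq's cattle annotation, so that reads could be shared between them where counting did not use strand.

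**Figure D2:**
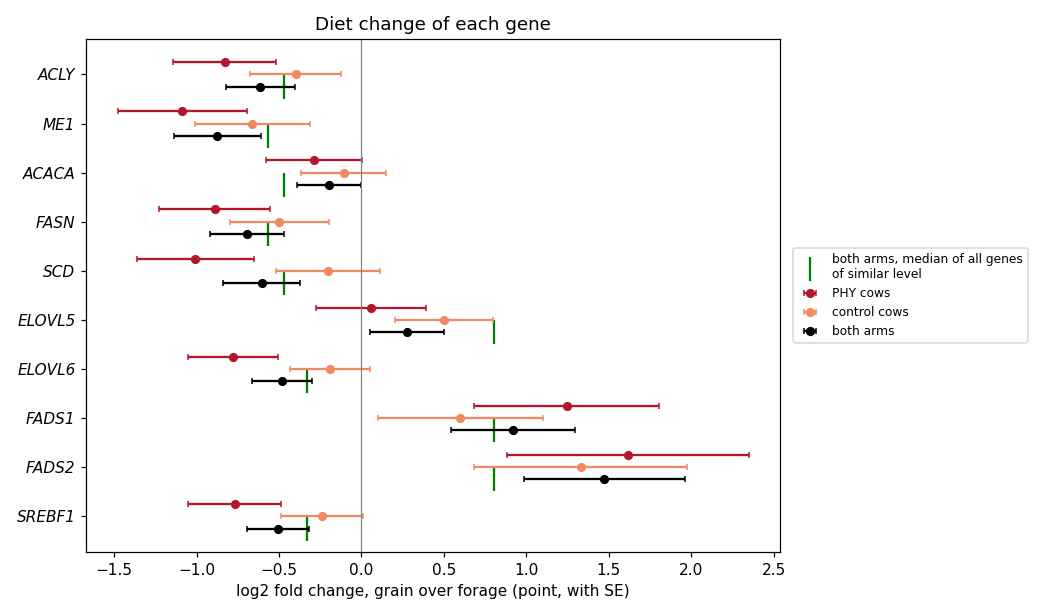
Log2 fold change of each gene on grain over forage (x axis; points, with bars of 1 SE) in PHY cows, control cows and both arms together, with a green tick for the median of all genes of similar level. Points left of 0 are lower on grain, and the ticks lie at -0.33 to -0.56 for the genes above 10 CPM and at 0.80 for ELOVL5, FADS1 and FADS2.

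Within the arms, edgeR called no gene in either comparison. In PHY cows (0% called) 8820 of 22202 genes, and 8 of the 10 described here, had an unadjusted p under 0.05, and the smallest adjusted p of any gene was 0.0696. DESeq2 called 5275 genes there, of them 3 of the 10 (ACLY, ME1 and FASN), and limma voom called 7895 and 7; a fit to the PHY libraries alone called 4353 and 7. In control cows (0% called) 2518 genes and none of the 10 had an unadjusted p under 0.05, and DESeq2 and limma voom called none either. By edgeR, ME1 changed by -1.09 ± 0.39 on the log2 scale in PHY cows (adjusted p = 0.0749) and by -0.66 ± 0.35 in control cows (adjusted p = 0.432). FASN changed by -0.89 ± 0.34 in PHY cows (edgeR adjusted p = 0.0791) and by -0.50 ± 0.30 in control cows (0.443). SCD had -1.01 ± 0.35 in PHY cows (edgeR adjusted p = 0.0731) and -0.20 ± 0.31 in control cows (0.722). FADS2 had 1.62 ± 0.73 in PHY cows (edgeR adjusted p = 0.109) and 1.33 ± 0.65 in control cows (0.432).

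The ranges of grain_PHY and forage_PHY did not overlap for 6 genes: ACLY, ME1, FASN, SCD and ELOVL6 were lower, as were 15.8% of all genes tested, and FADS2 was higher, as were 14.2%. No gene of the 10 was without overlap between grain_control and forage_control, where 0.86% of genes were lower and 0.491% higher without overlap. Nor was any apart between all grain and all forage libraries, where 0.153% of genes were lower and 0.054% higher. Between forage_PHY and forage_control (0.338% higher, 0.216% lower) and between grain_PHY and grain_control (0.311% higher, 0.405% lower) all 10 overlapped too. The test of the difference itself, the diet response of PHY cows minus that of control cows, called none of the 10 and no gene in the table (0% called; edgeR, DESeq2 and limma voom; 442 genes with an unadjusted p under 0.05 by edgeR). That difference was -0.81 ± 0.47 on the log2 scale for SCD, -0.59 ± 0.36 for ELOVL6, -0.53 ± 0.37 for SREBF1 and 0.64 ± 0.75 for FADS1 (SE; edgeR adjusted p = 0.954 for each). The arms are thus not shown to differ in their response for any of the 10 genes.

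Diet changes across the whole table followed the level of a gene. Among genes with a geometric mean of 1 to 10 CPM, 28.8% were higher and 2.19% lower on grain, with a median log2 change of 0.80, and ELOVL5, FADS1 and FADS2 are in this range. Among those at 10 to 30 CPM, with ELOVL6 and SREBF1, 29% were lower, 1.58% higher and the median was -0.33. At 30 to 100 CPM, the range of ACLY, ACACA and SCD, 48.9% were lower, 0.879% higher and the median was -0.47. At 100 to 300 CPM, with ME1 and FASN, 52.6% were lower, 1.36% higher and the median was -0.56. Below 1 CPM, where none of the 10 lies, 19.1% were higher and 0.0337% lower, and above 300 CPM 39.2% were lower and 0% higher. Against the median of its own range ME1 stood 0.31 lower on the log2 scale, and 1.75% of the 513 genes in that range had a lower change. ACLY, FASN, SCD, ELOVL6 and SREBF1 stood 0.13 to 0.18 below their medians, with 19.7% to 24.2% of genes lower still. ACACA stood 0.27 above its median, with 92.6% of the 2388 genes of its range lower. FADS2 was 0.67 above and ELOVL5 0.52 below the median of the weakly expressed genes, with 76.3% and 33.3% of genes lower, and FADS1 stood 0.12 above with 53.6% lower.

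**Figure D3:**
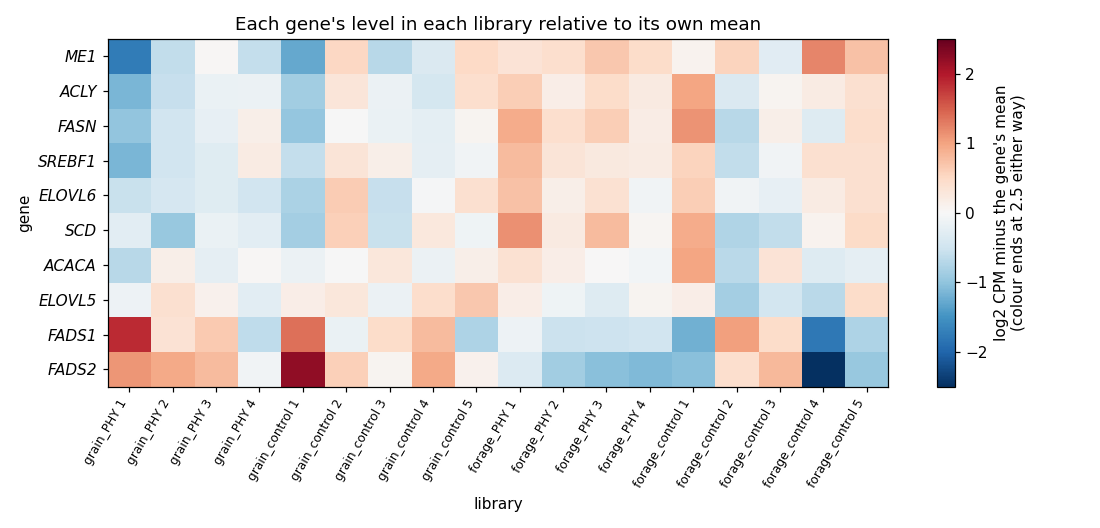
Log2 CPM of the 10 genes (rows) in the 18 libraries (columns, ordered grain_PHY, grain_control, forage_PHY, forage_control), each centred on its mean over libraries; the colour scale is in log2 units and ends at 2.5 either way. In grain_PHY 1 and grain_control 1 FADS1 and FADS2 are above their means while ME1, FASN and ACLY are below theirs.

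Across the 18 libraries ACLY kept closest to FASN, with a root mean square difference of 0.234 in centred log2 CPM, and to SREBF1, with 0.241. ME1 and FADS2 were farthest apart, at 1.73. Candidates were named genes averaging at least 5 CPM. The 3 nearest to SCD among 9891 of them were DHCR7 (0.262), ACAT2 (0.271) and CYP51A1 (0.284), against a median of 0.573 over candidates. DHCR7 and CYP51A1 encode enzymes of cholesterol synthesis and ACAT2 an acetyl-CoA acetyltransferase. Among the 3 nearest to ELOVL6 were MRPL15 (0.199) and again ACAT2 (0.202). Nearest to ACLY were NOP56, PSMC2 and UTP3, to FASN were IFRD2, FOXK2 and SYNCRIP, and to SREBF1 were SRP68, ARFRP1 and PALLD. Nearest to ME1 were UGT1A1, ACADS and NGEF, and to ACACA were PPRC1, ZNF598 and TRMT12. Nearest to ELOVL5 were PCDHGC3, ARHGAP29 and FNIP2, to FADS1 were MSH5, DNAH1 and PPP1R9A, and to FADS2 were FRMD3, HEPH and F5. These likenesses are descriptions over libraries that share depth and diet.

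Ratios of 2 genes within a library do not depend on how libraries are scaled. The log2 ratio of ELOVL6 to ELOVL5, the elongases of palmitate and of polyunsaturated chains, was 1.60 ± 0.37 on grain and 2.42 ± 0.37 on forage (SD, n = 9 each), a difference of -0.82 (exact two-sided permutation p = 0.000535, adjusted p = 0.00802 over 15 tests). It was 1.55 ± 0.26 in grain_PHY and 2.35 ± 0.38 in forage_PHY (exact permutation p = 0.0286, which is the lowest value that 4 against 4 can reach, adjusted p = 0.107). It was 1.65 ± 0.46 in grain_control and 2.48 ± 0.39 in forage_control (exact permutation p = 0.0238, adjusted p = 0.107). The difference had the same sign in both arms (-0.80 in PHY cows and -0.83 in control cows). The genes lie in different level ranges, whose median log2 changes were -0.33 and 0.80, and the part of that pattern in the ratio was not tested. Without the 3 libraries named above the difference was -0.71 (exact permutation, adjusted p = 0.0584), and with all libraries thinned to 3953060 reads -0.71 (adjusted p = 0.252).

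The log2 ratio of FADS2 to FADS1 was -1.29 ± 0.59 on grain and -2.01 ± 0.47 on forage, a difference of 0.72 that did not pass the adjusted threshold (SD, n = 9 each; exact permutation p = 0.0133, adjusted p = 0.0993). The log2 ratio of SCD to FASN was -1.21 ± 0.46 on grain and -1.32 ± 0.33 on forage (SD, n = 9 each; exact permutation p = 0.547, adjusted p = 0.714), so a difference in this ratio was not detected. In PHY against control libraries of the same diet none of the 3 ratios passed, with adjusted p of 0.714 to 0.886 (exact permutation).

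**Figure D4:**
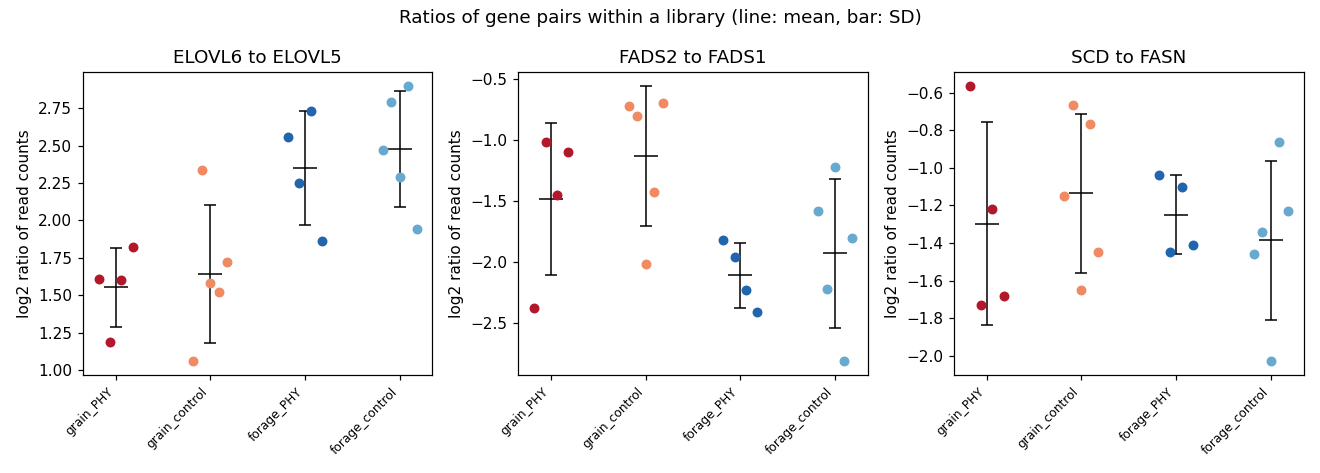
Log2 ratio of read counts (y axis) for ELOVL6 to ELOVL5, FADS2 to FADS1 and SCD to FASN in every library, by group from left to right grain_PHY, grain_control, forage_PHY and forage_control; points are libraries, the line is the mean and the bar the SD. ELOVL6 to ELOVL5 averages 1.55 in grain_PHY and 1.65 in grain_control, below 2.35 in forage_PHY and 2.48 in forage_control.

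PHY against control passed for none of the 10 genes on forage (0% of genes called; 356 with an unadjusted p under 0.05), on grain (0%; 571) or over both diets (0%; 405) by edgeR. DESeq2 and limma voom also called none of the 10, and over both diets they called 5 and 3 other genes. On forage SCD had 73.2 ± 25.9 CPM with PHY and 53.4 ± 26.03 CPM without it, a log2 change of 0.46 ± 0.33 (SE; edgeR adjusted p = 1). On forage the log2 change was 0.28 ± 0.32 for FASN and -0.59 ± 0.69 for FADS2 (SE; edgeR adjusted p = 1 for both). On grain ELOVL6 had 13.1 ± 1.03 CPM with PHY and 18.1 ± 7.45 CPM without it, a log2 change of -0.48 ± 0.26 (SE; edgeR adjusted p = 0.999). On grain ME1 had -0.49 ± 0.37, ACLY -0.38 ± 0.30 and FADS1 0.33 ± 0.53 (log2 change ± SE; edgeR adjusted p = 0.999 for each).

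Other genes of the pathway were read from 7 lists of 72 symbols, of which 71 were tested. Over both arms 28 were lower and 5 higher on grain, with a median log2 change of -0.36, against 13.8% lower, 18.1% higher and a median of 0.20 over all genes. Read against genes of like level, 17 of 21 pathway genes at 30 to 100 CPM were lower (81%, against 48.9% of all genes there), 7 of 19 at 10 to 30 CPM (36.8% against 29%) and 1 of 27 at 1 to 10 CPM (3.7% against 2.19%). Their medians in these ranges were -0.53, -0.36 and 0.18, against -0.47, -0.33 and 0.80 for all genes. At 1 to 10 CPM 4 of 27 were higher (14.8%, against 28.8% of all genes there). The counts per list that follow were not set against genes of like level. Of all genes, 29% were lower at 10 to 30 CPM, 48.9% at 30 to 100 CPM and 52.6% at 100 to 300 CPM. Without the 3 shallowest libraries no gene of the table was called. Of 9 genes of acetyl-CoA supply, 6 were lower and 2 higher. SLC25A1, the mitochondrial citrate carrier, had 28.4 ± 8.84 CPM on grain and 50.7 ± 10.1 CPM on forage (SD, n = 9 each; log2 change -0.87, edgeR adjusted p = 0.0201). ACSS2, which activates acetate in the cytosol, fell by 0.53 on the log2 scale (edgeR adjusted p = 0.0257), to 32.4 ± 9.23 CPM on grain against 45.8 ± 5.96 CPM on forage. ACSS3, a mitochondrial relative, was higher, with 4.05 ± 2.86 CPM on grain and 1.13 ± 1.05 CPM on forage (log2 change 1.95, edgeR adjusted p = 0.0202).

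Of 6 genes of NADPH supply 3 were lower on grain and none higher, among them IDH1, a cytosolic isocitrate dehydrogenase (log2 change -0.74), and ME2, a mitochondrial malic enzyme (-0.71). Among 12 genes of chain synthesis and its control 3 were lower and 1 higher; MID1IP1, which activates the acetyl-CoA carboxylases, had 19.0 ± 6.01 CPM on grain and 34.3 ± 9.51 CPM on forage (log2 change -0.87, edgeR adjusted p = 0.0202), and CBR4 (-0.68) and NDUFAB1 (-0.70), of mitochondrial fatty acid synthesis, fell too. OLAH, the thioesterase that ends shorter chains, was higher by the test but had only 0.809 ± 0.892 CPM on grain and 0.186 ± 0.267 CPM on forage. Of 11 elongation genes 3 were lower, TECR (log2 change -0.79), HACD2 (-0.78) and HSD17B12 (-0.52), which encode the later enzymes of the elongation cycle, and ELOVL2 was higher (1.59), at 2.47 ± 1.65 CPM on grain and 0.880 ± 0.837 CPM on forage.

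Of 6 genes of desaturation and its electron transfer, 3 were lower on grain and none higher. These were CYB5R3 (log2 change -0.81), CYB5A (-0.77) and CYB5B (-0.47), which pass electrons to the desaturases; CYB5R3 had 34.1 ± 10.5 CPM on grain and 58.9 ± 15.8 CPM on forage (SD, n = 9 each; edgeR adjusted p = 0.0202). Of 12 genes of transcriptional control 6 were lower and none higher, among them SREBF2 (log2 change -0.70), the sterol-regulated relative of SREBF1, NR1H2 (-0.62), an oxysterol receptor, USF2 (-0.58) and USF1 (-0.44). Of 15 tested genes of acyl activation and glyceride assembly 4 were lower and 1 higher: AGPAT1 (log2 change -0.57), LPIN3 (-0.45), DGAT1 (-0.59) and AGPAT2 (-0.66) fell, and GPAT3 (1.02) was higher. The 5 higher genes, which include PC of the acetyl-CoA list, each had a mean under 5 CPM, and among the 28 lower ones only HACD2 did.

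**Figure D5:**
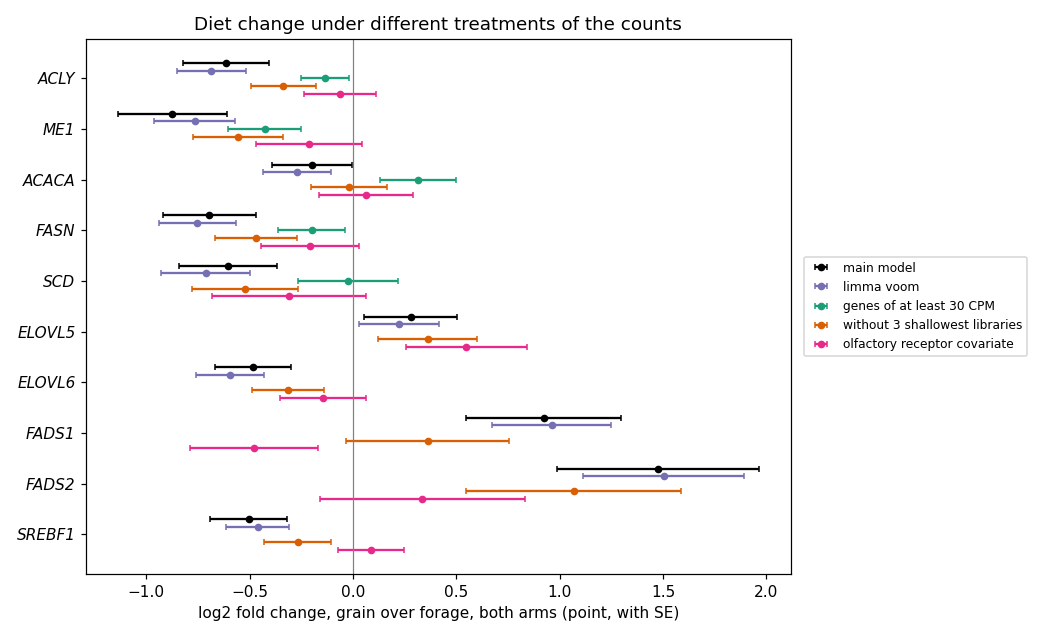
Log2 fold change of each of the 10 genes on grain over forage, both arms (x axis; points, with bars of 1 SE), in the main model, by limma voom, among genes of at least 30 CPM, without the 3 shallowest libraries and with the olfactory receptor covariate. With the covariate ME1 is at -0.21 and FASN at -0.21, and without the 3 libraries they are at -0.56 and -0.47.

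The calls on diet did not hold without the 3 libraries of fewest reads, which also had the highest olfactory receptor CPM. Without them ME1 had a log2 change of -0.56 ± 0.22 (SE; edgeR adjusted p = 0.204), FASN -0.47 ± 0.20 (0.226), ACLY -0.34 ± 0.16 (0.255) and FADS2 1.07 ± 0.52 (0.264). ACACA, at -0.02 ± 0.18, and FADS1, at 0.36 ± 0.39, were then within 1 SE of 0, and none of the 10 genes passed the test. With the log2 olfactory receptor level as a covariate none of the 10 and no other gene was called by edgeR (1032 genes with an unadjusted p under 0.05), and SREBF1 (0.09), ACACA (0.06) and FADS1 (-0.48) changed sign. The covariate was itself higher on grain (106.6 CPM, against 30.4 CPM on forage). This fit can thus take up part of a diet difference and cannot separate diet from the covariate. Leaving out grain_PHY 1 alone left 1 gene called in the table and none of the 10. Only 1 of the 10 was called without forage_control 1, forage_PHY 1, forage_PHY 2 or grain_control 1, 2 without forage_PHY 3 or grain_PHY 2, and 3 without forage_control 5 or grain_control 4. ME1 kept its call in 17 of 18 fits with 1 library left out, and had an adjusted p of 0.0717 by edgeR without grain_PHY 1.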

How the data were processed

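RNA was measured in 18 libraries of rumen papillae. Per the labels' protocols, a spin column yielded total RNA, of which 10 ng went into a stranded total RNA library kit. The deposited table of counts holds whole read counts of 27270 Ensembl genes. The deposited table of DESeq2-normalized signal equals those counts divided by 1 size factor per library (largest relative deviation 5.11e-15) and served only as a check. Per the submitters' processing notes, the build was bosTau9, reads were demultiplexed with bcl2fastq 2.20 and normalized with DESeq2. For aligner, counter, annotation and strandedness the sources used here give nothing. Replicate numbers follow the order of deposit.

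Differences were tested with edgeR 4.0.16 (R 4.3.3): filterByExpr by group, TMM, 1 mean per group over all 18 libraries, the robust quasi-likelihood F test, and Benjamini-Hochberg adjustment over 22202 genes (biological coefficient of variation 51.4%). SE is the size of the log2 change divided by the square root of F. CPM uses TMM library sizes (olfactory receptor CPM: total reads). TMM factors were 1.241 ± 0.468 on grain and 0.856 ± 0.127 on forage (SD, n = 9 each), and CPM and log2 changes depend on this scaling. In each library the 2 genes with the most reads held 28.5% to 63.5% of reads. Log2 ratios (counts plus 0.5) were compared by exact two-sided permutation. The 10 genes, the lists and the tests were chosen with earlier results of these data known. The text names the 10 genes, up to 4 genes per pathway list with the smallest adjusted p, and the 3 nearest genes in centred log2 CPM (prior count 2); ACACB, PC and AGPAT2 were named after their values were seen. Alternatives were other normalization, filters, tests (DESeq2 1.42.0, limma 3.58.1), a covariate, thinning and libraries left out. Some genes that this rule names are left out of the text, and promoter motifs were not analysed here. Per the labels each cow was sampled on both diets, but no library is tied to a cow, so p-values measure the spread between these libraries, and the depth of 3953060 to 34471682 reads limits the precision of weakly expressed genes.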

Additional observations from a re-analysis of the deposited data

Results flagged for a closer look

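In 52 sets of 4 or 5 libraries checked, 3 held a library far from the others, where chance alone gives about 1 in 20. SCD stood at 24.6 CPM in grain_PHY 2, below the other 3 grain_PHY libraries at 39.3 to 42.3 CPM. FADS1 stood at 3.29 CPM in forage_PHY 1, above the other forage_PHY libraries at 2.44 to 2.49 CPM. FADS2 stood at 5.56 CPM in grain_control 1, a library of 5433497 reads, above the other grain_control libraries at 1.20 to 2.27 CPM. The causes were not tested.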

How the results depend on the processing

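No paired analysis was possible because cows are not identified per library in the labels, which also give no replicate numbers. For grain against forage over both arms, 7091 of 22202 genes and 6 of the 10 were called. With a filter of 10 CPM in 4 libraries 443 of 8654 genes were called, and 0 of the 7 described genes still tested. Among genes of at least 30 CPM it was 51 of 3111 genes and 0 of the 5 still tested. All 10 were tested in the other settings. With the olfactory receptor covariate, itself higher on grain, 0 of 22202 genes and 0 of the 10 were called. Without the 3 libraries of fewest reads it was 0 of 21399 genes and 0 of the 10. With all libraries thinned to 3953060 reads it was 4039 of 15724 genes and 3 of the 10. The cause was not tested. TMM factors were computed anew after each filter, so the scaling of the libraries changed as well. Under the 2 filters the log2 changes of all described genes still tested moved upward. With the 10 CPM filter ME1 went from -0.87 to -0.53, SCD from -0.61 to -0.17 and ACACA from -0.20 to 0.19. The part of the scaling in the lost calls and turned signs was not tested. Over all genes tested the median log2 change was 0.20, and 0.005 with the 10 CPM filter. Leaving out 1 library gave 1 to 9587 genes and 0 to 8 of the 10.

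In PHY cows DESeq2 called 5275 genes and 3 of the 10, limma voom 7895 and 7, and the PHY libraries alone 4353 and 7, against 0 by edgeR with all groups; leaving out 1 library gave 0 to 1677 genes (1677 without forage_control 5, 1428 without grain_control 1). PHY against control over both diets called 1 gene with the 10 CPM filter, 5 by DESeq2 and 3 by limma voom.

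Signs turned as follows (log2 changes, none called). With the 10 CPM filter ACACA was at 0.19 over both arms, 0.15 in control cows and 0.22 in PHY cows, and in control cows SCD was at 0.10, ELOVL6 at 0.051 and SREBF1 at 0.043. With the covariate ACACA was at 0.062 over both arms, 0.044 in PHY cows and 0.080 in control cows, FADS1 at -0.48 over both arms, -0.73 in PHY cows and -0.23 in control cows, SREBF1 at 0.087 over both arms and 0.22 in control cows, and in control cows SCD at 0.021 and ELOVL6 at 0.041; FADS1 was at -0.22 for PHY against control on grain and at -0.50 for the difference of responses. Among genes of at least 30 CPM ACACA was at 0.32 over both arms, 0.37 in PHY cows and 0.26 in control cows, and SCD at 0.21 in control cows. Without the 3 libraries ACACA (0.0101), ELOVL6 (0.014) and FADS1 (-0.017) turned in control cows, and the SCD to FASN ratio differed by -0.076. Thinned, ACACA was at 0.00907 in control cows and the SCD to FASN ratio differed by 0.067 in PHY cows. By limma voom, PHY against control gave 0.091 for FADS2 on forage, 0.070 for ME1 on grain, and 0.15 for ME1 and 0.16 for FADS2 over both diets, and FADS1 had -0.16 for the difference of responses.

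The ELOVL6 to ELOVL5 difference of -0.82 was -0.71 without the 3 libraries and -0.71 thinned, past the threshold in neither, and -0.91 to -0.75 with 1 library left out (exact permutation, adjusted p = 0.00247 to 0.0167). That of FADS2 to FADS1 ran from 0.62 to 0.85, and passed without forage_control 3 (0.82) or grain_PHY 1 (0.85). Over the same leave-outs ACACA in control cows ran from -0.25 to 0.21, SCD in control cows from -0.39 to 0.072, ELOVL5 in PHY cows from -0.095 to 0.17, SCD to FASN in PHY cows from -0.30 to 0.095, FASN for PHY against control over both diets from -0.013 to 0.25, and FADS1 on grain from -0.28 to 0.66.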
